A study of Medicago ruthenica with 9 samples.

Results

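Enzymes of raffinose-family oligosaccharide and trehalose metabolism were followed in leaves of Medicago ruthenica, a forage legume, under drought and after rewatering. Members were the unigenes of the leaf assembly whose protein description named galactinol, raffinose, stachyose, trehalose or trehalase and which reached 1 TPM (abundance per length of the unigene, set to a common library total) in at least 3 libraries. Of 52457 unigenes, 39 matched by text and 37 of these were among the 44538 unigenes tested. The raffinose family held 18 tested unigenes of 18 matched (4 for galactinol synthase, 13 for raffinose synthase or proteins named after it, and 1 for stachyose synthase). The trehalose family held 19 of 21, with 9 for trehalose-phosphate synthase, 9 for trehalose-phosphate phosphatase and 1 for trehalase. The remaining pair, named TPP2 and TPPJ (TRINITY_DN21620_c1_g5), did not reach the minimum.

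Seedlings were 4 weeks old when treatment began and grew 8 to a pot. Drought-stressed plants (DS) went 15 days without water, until relative soil moisture stood at 20%. Rewatered plants (RW) were dried for the same 15 days, then soaked, and their leaves were taken 2 days later. Control plants (CK) received water every 3 days, which kept relative soil moisture above 80%, and were harvested on the same day as DS plants. Each group had 3 libraries, described as biological replicates. The labels do not say whether a replicate was a plant or a pot, and the p-values given here cover only the spread among these 9 libraries. Because RW leaves were also 2 days older than CK and DS leaves, rewatering and a later harvest cannot be told apart in RW vs. CK or in DS vs. RW.

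Both families use nucleotide sugars and begin from central leaf metabolites. Galactinol synthase joins UDP-galactose to myo-inositol, raffinose synthase passes the galactosyl group of galactinol to sucrose, and stachyose synthase passes a further one to raffinose. These oligosaccharides accumulate in maturing seeds and in many stressed leaves. In the other pathway, trehalose-phosphate synthase (TPS) makes trehalose 6-phosphate, a signal of sucrose status that inhibits the SnRK1 kinase in Arabidopsis, trehalose-phosphate phosphatase (TPP) converts it to trehalose, and trehalase cleaves trehalose to glucose.

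Summed TPM was close to equal among libraries (994748 to 996266). The values keep no read counts, so the number of reads behind each value is unknown. The study gives a range of raw reads over its libraries, which was not used here. The leaf mesophyll marker list of 30 unigenes summed to 31095 to 88239 TPM in DS, 56099 to 78756 in RW and 66017 to 90150 in CK, and no list had a unigene at 0 in all libraries. Xylem and secondary wall markers (35 unigenes) summed to 47.6 to 223 TPM in DS, 119 to 501 in RW and 378 to 1196 in CK, so that DS lay below CK. Phloem markers (27 unigenes) overlapped, with 924 to 3660 TPM in DS, 1081 to 2437 in RW and 1941 to 7735 in CK. Seed storage markers (14 unigenes) summed to 47.3 to 100 TPM in DS, 79.3 to 108 in RW and 63.4 to 97.1 in CK, and the 1 nodule and root unigene stayed below 3 TPM. The part of these lists in the results that follow was not tested. In whole leaves, fewer cells of a type and less RNA per cell cannot be told apart.

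Drought changed a subset of members in both directions, and neither family moved as a block. In DS vs. CK, 8 of 37 members (21.6%) were called, 5 up and 3 down, against 4.96% of all unigenes tested (2.39% up and 2.57% down). A call here means a Benjamini-Hochberg adjusted p under 0.05 in limma and a difference beyond 1 on the log2(TPM + 1) scale, which understates the change of low unigenes. The raffinose family had 3 up and 2 down of 18, and the trehalose family 2 up and 1 down of 19. The called RFS, RFS1 and TPPA unigenes are pairs that varied together across libraries, so their calls are not independent. Summed per gene symbol, a choice made after the data were seen, DS vs. CK had 3 calls of 7 features for raffinose and 2 of 15 for trehalose. The median difference was -0.15 on that scale in each family, beside -0.19 over all unigenes tested. In DS vs. RW, 8 of 37 were again called (5 up, 3 down), against 3.94% of all unigenes (2.15% up and 1.79% down), with medians of -0.14 for raffinose and -0.16 for trehalose beside -0.17 over all. The DS libraries are common to these comparisons, so the counts are not independent of each other. In RW vs. CK, limma called 0 of 37 members, against 0.00225% of all unigenes.

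The shorter pair of unigenes named RFS, for raffinose synthase, was higher under drought, while the longest RFS unigene was not called. TRINITY_DN24926_c0_g1 (1252 bp), which carries the symbol RFS of an enzyme that adds galactose to sucrose, had 22.84, 27.48 and 23.94 TPM in DS, 8.63, 2.79 and 3.75 TPM in RW, and 5.20, 5.66 and 7.00 TPM in CK. Another RFS unigene of the same assembly cluster, TRINITY_DN24926_c0_g2 (640 bp), had 23.27, 27.66 and 23.83 TPM in DS, 6.62, 2.36 and 3.55 TPM in RW, and 6.16, 4.00 and 5.92 TPM in CK. All 3 DS libraries lay far above the other 6 in both unigenes, with no overlap. The log2 difference of c0_g1 was 1.89 (SE 0.34, limma adjusted p 0.0137) in DS vs. CK and 2.20 (SE 0.34, adjusted p 0.00655) in DS vs. RW. For c0_g2 it was 2.04 (SE 0.32, adjusted p 0.00709) in DS vs. CK and 2.4 (SE 0.32, adjusted p 0.00333) in DS vs. RW. Without DS 2, the DS vs. CK difference of c0_g1 was 1.82 and its adjusted p 0.0567.

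The third RFS unigene, TRINITY_DN24926_c1_g1, was the longest (3352 bp) and had the highest mean of its class. It had 29.19, 21.92 and 47.58 TPM in DS, 20.07, 36.18 and 10.22 TPM in RW, and 25.89, 24.92 and 18.32 TPM in CK. Here the groups overlapped, and the DS vs. CK difference of 0.44 (95% interval -0.51 to 1.39) did not pass the test. Across the 9 libraries, log2(TPM + 1) of the shorter pair had a Pearson r of 0.987 with a ratio between 0.844 and 1.42, whereas r with the longest unigene was 0.358 and 0.36. Each r between unigenes, here and below, includes the differences between groups, which raise it for unigenes called in the same direction. Whether the shorter pair are pieces of 1 transcript cannot be read from TPM. Summed over the 3 RFS unigenes, a choice made after the data were seen, the level was 82.6 ± 11.1 TPM in DS, 31.4 ± 12.4 TPM in RW and 34.4 ± 3.01 TPM in CK (SD, n = 3 each). The sum passed limma with 1.24 in DS vs. CK (adjusted p 0.0414) and 1.44 in DS vs. RW (adjusted p 0.0252). The shorter pair was already called up singly, so the sum is not separate evidence.

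**Figure D1:**
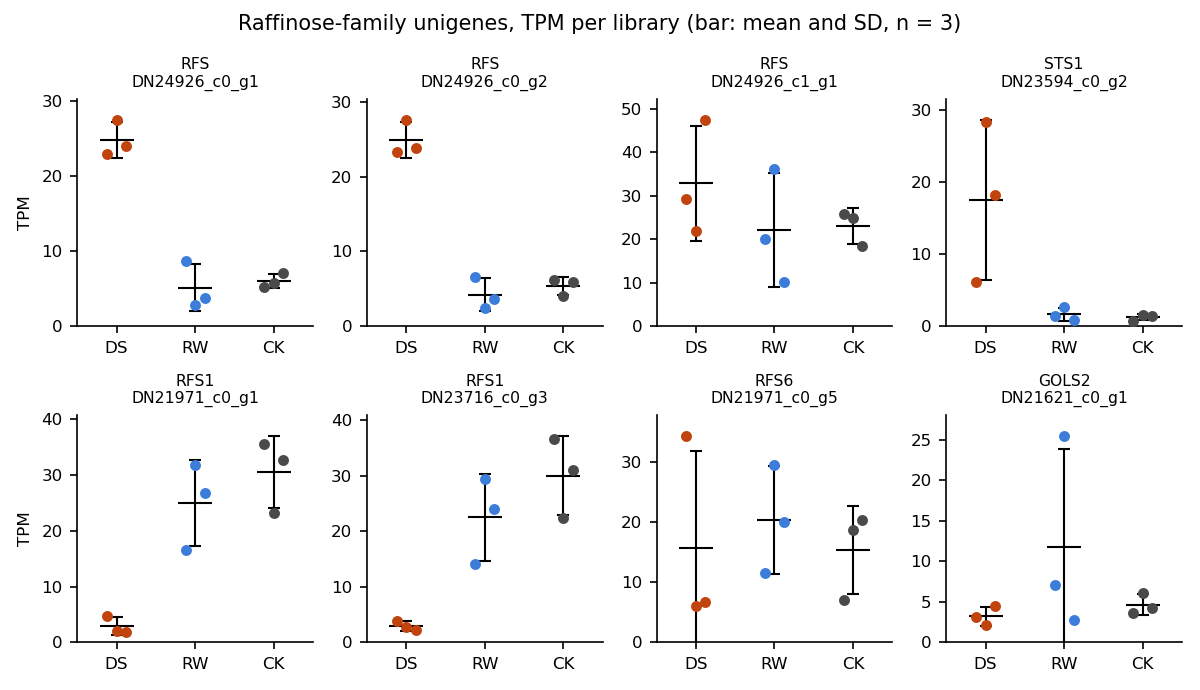
TPM (vertical axis, from 0) of 8 raffinose-family unigenes in each DS, RW and CK library (points), with the group mean and SD (bars, n = 3, cut off at 0). The first pair of RFS unigenes and STS1 have all DS points above the RW and CK points, the RFS1 pair has all DS points below them, and RFS TRINITY_DN24926_c1_g1, RFS6 and GOLS2 overlap.

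Unigenes named RFS1 went the other way and had the largest drops among members. In Arabidopsis, proteins named RFS1, RFS2 and RFS6 resemble alkaline alpha-galactosidases, which remove galactose from raffinose-family sugars, and RFS2 has been shown to act on raffinose. TRINITY_DN21971_c0_g1 (1613 bp) had 4.73, 2.12 and 1.91 TPM in DS, 16.55, 31.69 and 26.74 TPM in RW, and 35.62, 23.21 and 32.62 TPM in CK. TRINITY_DN23716_c0_g3 (1105 bp) had 3.94, 2.79 and 2.23 TPM in DS, 14.08, 29.48 and 24.01 TPM in RW, and 36.54, 22.44 and 31.05 TPM in CK. Every DS library was below every RW and CK library for both unigenes. They fell by 3.05 (SE 0.34, limma adjusted p 0.00113) and 2.96 (SE 0.31, adjusted p 0.000894) on the log2(TPM + 1) scale in DS vs. CK. In DS vs. RW they fell by 2.75 (SE 0.34, adjusted p 0.00209) and 2.52 (SE 0.31, adjusted p 0.00224).

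The RFS1 pair sat in different assembly clusters but varied together from library to library, with r = 0.995 across 9 libraries and a ratio from 0.76 to 1.2, so shared reads between them cannot be separated in TPM. Their sum was 5.91 ± 2.42 TPM in DS, 47.5 ± 15.5 TPM in RW and 60.5 ± 13.5 TPM in CK (SD, n = 3 each). The mean sum in DS was 0.0976 times that in CK and 0.124 times that in RW. Tested as a single feature, a choice made after the data were seen, the sum fell by 3.18 in DS vs. CK (limma adjusted p 0.000734). In DS vs. RW it fell by 2.81 (limma adjusted p 0.00163). Both unigenes were already called down singly, so the sum is not separate evidence. Summed per Trinity component instead, where RFS6 and non-member unigenes enter, none of the 4 RFS1 calls was kept. The values were then -0.91 (adjusted p 0.376) in DS vs. CK and -1.03 (0.318) in DS vs. RW for the component of TRINITY_DN21971_c0_g1, and -1.37 (0.0691) and -1.27 (0.0979) for that of TRINITY_DN23716_c0_g3.

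The same assembly clusters each held an RFS6 unigene that did not follow RFS1. RFS6 TRINITY_DN21971_c0_g5 (438 bp) had 34.23, 6.12 and 6.72 TPM in DS, 11.47, 29.36 and 20.04 TPM in RW, and 6.99, 18.68 and 20.26 TPM in CK. A single drought library, DS 1, stood above the rest, while DS 2 and DS 3 were below the lowest CK library. RFS6 TRINITY_DN23716_c0_g1 had the same order of libraries within DS (24.91, 3.07 and 5.75 TPM), and the pair had r = 0.975. The DS vs. CK difference of TRINITY_DN21971_c0_g5 was -0.26 (95% interval -1.69 to 1.17, not passing), and it was -1.01 without DS 1. The third RFS6 unigene was listed at 0 in 5 of 9 libraries. None of 5 RFS2 unigenes was called by limma in any comparison, with group means between 0.577 and 9.09 TPM, and their sum was nearly equal among groups (23.8 ± 7.54 TPM in DS, 24.3 ± 4.09 in RW and 24.2 ± 7.96 in CK; SD, n = 3 each).

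Stachyose synthase was near 1 TPM in rewatered and control leaves and higher under drought. STS1 TRINITY_DN23594_c0_g2 (2800 bp), whose product builds stachyose from raffinose, had 6.10, 28.33 and 18.14 TPM in DS, 1.39, 2.63 and 0.76 TPM in RW, and 0.73, 1.53 and 1.42 TPM in CK. DS libraries spread widely, but the lowest of them was above the highest RW or CK library. The mean TPM in DS was 14.3 times that in CK and 11.0 times that in RW. On the log2(TPM + 1) scale the difference was 2.85 (SE 0.52, limma adjusted p 0.0158) in DS vs. CK and 2.68 (SE 0.52, adjusted p 0.0219) in DS vs. RW. The call rested on each of several libraries, with DS vs. CK values of 2.92 without CK 3 (adjusted p 0.0532), 2.41 without DS 2 (0.0572) and 2.72 without DS 3 (0.051). DS vs. RW values were 2.23 without DS 2 (adjusted p 0.0766), 2.54 without DS 3 (0.0719), 2.65 without RW 1 (0.0672) and 2.43 without RW 3 (0.085), and the adjusted p was 0.0558 when only the 6 libraries of that pair were fitted. Summed with the other unigenes of its Trinity component, which include non-members more abundant than STS1 in CK, the difference was 0.30 (adjusted p 0.579) in DS vs. CK and 0.61 (adjusted p 0.257) in DS vs. RW.

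Galactinol synthase, the first committed step, gave no call in 4 unigenes in any of the 3 comparisons. Of these, 1 (TRINITY_DN21621_c0_g3, in DS vs. RW) had an unadjusted p under 0.05 in limma. It was higher in DS, by 0.91 (limma adjusted p 0.232), with 1.6, 2.36 and 2.18 TPM in DS, above every RW and CK library. The other galactinol synthase unigenes had negative differences in DS vs. CK and in DS vs. RW. The leading unigene, GOLS2 TRINITY_DN21621_c0_g1 (1182 bp), had 3.10, 2.09 and 4.45 TPM in DS, 7.06, 25.47 and 2.81 TPM in RW, and 3.64, 6.14 and 4.20 TPM in CK. RW 2 stood alone at the top, and the other libraries of all groups overlapped. Its DS vs. CK difference was -0.44 with a 95% interval of -1.80 to 0.92, wide enough to hold a sizeable change in either direction. The 2 GOLS1 unigenes were highest in CK 2 (12.29 and 8.62 TPM), and their sum was 3.15 ± 1.95 TPM in DS, 6.76 ± 6.33 in RW and 9.34 ± 10.4 in CK (SD, n = 3 each).

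Sums per enzyme differed less between groups than the single unigenes did, except for stachyose synthase. The 13 raffinose synthase-type unigenes summed to 171.94, 121.01 and 127.34 TPM in DS, 113.88, 186.71 and 120.19 TPM in RW, and 137.95, 141.56 and 159.59 TPM in CK. Higher RFS and lower RFS1 offset each other in this sum, and DS did not differ from CK beyond the spread (exact two-sided permutation test, p = 0.7). The sum joins RFS with RFS1, RFS2 and RFS6, whose Arabidopsis namesakes resemble alkaline alpha-galactosidases, so it is not a level of raffinose synthase alone. The galactinol synthase sum was 8.41 ± 1.88 TPM in DS, 19.2 ± 12.4 in RW and 14.8 ± 11.3 in CK (SD, n = 3 each; exact permutation p = 0.5 for DS vs. CK). That sum rested on single libraries, with a log2 ratio of DS to CK means of -0.82, or -0.01 without CK 2, and of RW to CK means of 0.37, or -0.11 without RW 2 and 1.18 without CK 2. Stachyose synthase took 3.31 to 17.8% of the family's TPM in DS libraries, 0.6 to 1.2% in RW libraries and 0.505 to 0.897% in CK libraries. For 3 against 3 libraries the smallest possible exact p is 0.1, which the STS1 level and the RFS and RFS1 sums each reached in both drought comparisons.

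In the trehalose family, TPPA phosphatases, which include its most abundant member, were higher under drought. TRINITY_DN21836_c0_g1 (1055 bp), whose product removes the phosphate from trehalose 6-phosphate, had 176.21, 89.21 and 205.66 TPM in DS, 40.19, 36.00 and 36.92 TPM in RW, and 41.56, 25.62 and 40.48 TPM in CK. TRINITY_DN20191_c0_g1 (851 bp) had 116.13, 48.15 and 119.34 TPM in DS, 27.93, 23.41 and 28.06 TPM in RW, and 28.36, 16.78 and 25.15 TPM in CK. DS 2 was the lowest drought library for both, yet it exceeded every RW and CK library. TRINITY_DN21836_c0_g1 was higher by 2.05 on the log2(TPM + 1) scale in DS vs. CK (SE 0.32, limma adjusted p 0.00663) and by 1.95 in DS vs. RW (SE 0.32, adjusted p 0.00906). It was called in each of the 21 alternatives tried, among them an unadjusted p and no minimum fold, which could not lose a call. TRINITY_DN20191_c0_g1 was higher by 1.89 in DS vs. CK (SE 0.35, adjusted p 0.0161) and by 1.69 in DS vs. RW (SE 0.35, adjusted p 0.0268). The DS vs. CK value of TRINITY_DN20191_c0_g1 was 1.68 without CK 2 (adjusted p 0.0582), 1.95 without CK 3 (0.053) and 1.69 without DS 1 (0.0574). Its DS vs. RW value ranged over 1.47 without DS 3 (adjusted p 0.0826), 1.49 without DS 1 (0.0924), 1.61 without RW 2 (0.0821), 1.73 without RW 1 (0.072) and 1.74 without RW 3 (0.0818), and the adjusted p was 0.0594 when only the 6 libraries of that pair were fitted.

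The TPPA pair came from different assembly clusters and had r = 0.992 across 9 libraries, with a ratio from 0.54 to 0.76, so that reads shared between them cannot be separated. Another unigene with the symbol TPPA, TRINITY_DN21836_c0_g2, was chosen for display after its values were seen and is annotated as TPPF by its closest Medicago truncatula protein. It had 26.25, 6.92 and 20.61 TPM in DS, 5.33, 0.78 and 3.24 TPM in RW, and 1.26, 9.32 and 5.65 TPM in CK. DS overlapped CK through DS 2 and CK 2, and the difference of 1.64 in DS vs. CK did not pass (limma adjusted p 0.215), nor did that of 2.20 in DS vs. RW (adjusted p 0.12). The 3 TPPA unigenes together gave 269 ± 109 TPM in DS, 67.3 ± 6.68 in RW and 64.7 ± 11.3 in CK (SD, n = 3 each), a mean in DS 4.16 times that in CK. That sum, added after the data were seen, passed limma with 1.96 in DS vs. CK (adjusted p 0.00874) and 1.89 in DS vs. RW (adjusted p 0.0113). The TPPA pair was already called up singly, so the sum is not separate evidence.

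**Figure D2:**
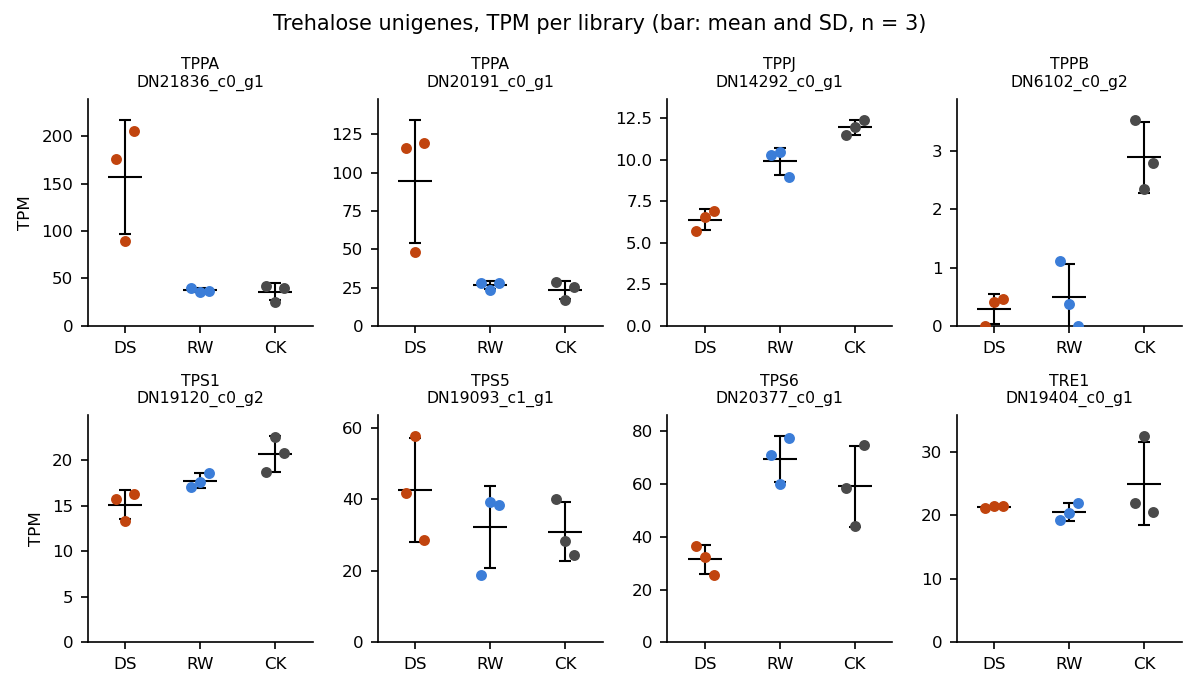
TPM (vertical axis, from 0) of 8 trehalose unigenes in each DS, RW and CK library (points), with the group mean and SD (bars, n = 3, cut off at 0). Both TPPA unigenes have all DS points above the rest, TPS6 has all DS points below the rest, TPPJ has all DS points below RW and all RW points below CK, and TPS5 and TRE1 overlap.

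Other phosphatases were far less abundant, with group means of at most 12 TPM, and went in more than 1 direction. TPPB TRINITY_DN6102_c0_g2, a short unigene of 246 bp, was listed at 0, 0.41 and 0.47 TPM in DS, 1.12, 0.37 and 0 TPM in RW, and 3.54, 2.34 and 2.79 TPM in CK. Outside CK only RW 1 reached 1 TPM, so this unigene was tested through its CK values. It was lower than CK in all drought libraries (log2 difference -1.60, SE 0.40, limma adjusted p 0.0491), but 15 of 20 alternatives lost the call, among them the omission of any 1 of the DS or CK libraries (adjusted p 0.0817 to 0.13). TPPJ TRINITY_DN14292_c0_g1 (1528 bp), chosen after its values were seen, had 5.70, 6.58 and 6.92 TPM in DS, 10.31, 10.46 and 9.0 TPM in RW, and 11.49, 12 and 12.42 TPM in CK. Its groups did not overlap, with DS lowest and CK highest, and the DS vs. CK difference of -0.81 had an adjusted p of 0.049 without reaching the minimum fold. The remaining 4 tested phosphatase unigenes (TPPG, TPP4, TPP9 and 1 without a symbol) had group means of 0.437 to 3.51 TPM and no call in limma.

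The synthases showed no rise that passed the test, and those whose libraries separated lay lower under drought. In Arabidopsis TPS1 is the main catalytic synthase, while TPS5 to TPS11 belong to a class with little or no shown synthase activity. TPS6 TRINITY_DN20377_c0_g1 (3440 bp), the most abundant synthase, had 36.47, 32.15 and 25.52 TPM in DS, 70.87, 59.96 and 77.21 TPM in RW, and 58.49, 44.12 and 74.71 TPM in CK. Drought libraries lay below the other 6 without overlap. It fell by 1.13 on the log2(TPM + 1) scale in DS vs. RW (SE 0.23, limma adjusted p 0.0286), while the DS vs. CK difference of -0.88 missed the threshold (SE 0.23, adjusted p 0.064). The DS vs. RW value was -1.24 without DS 1 (adjusted p 0.0502), -1.15 without DS 2 (0.0779), -0.99 without DS 3 (0.0833), -1.11 without RW 1 (0.09) and -1.05 without RW 3 (0.109), and -0.97 after median-of-ratios scaling, none of which was a call.

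TPS1 TRINITY_DN19120_c0_g2 (3952 bp) varied little, with 15.71, 13.37 and 16.33 TPM in DS, 17.07, 17.62 and 18.62 TPM in RW, and 18.67, 22.58 and 20.83 TPM in CK. The 3 groups were ordered without overlap, but the DS vs. CK difference of -0.43 (95% interval -0.83 to -0.03) did not pass (limma adjusted p 0.21). A second unigene described as TPS1, TRINITY_DN25522_c0_g3 (416 bp, no symbol), had 13.80, 14.54 and 11.54 TPM in DS, 16.67, 13.44 and 19.68 TPM in RW, and 21.14, 18.14 and 27.93 TPM in CK. Its DS vs. CK difference was -0.70 (adjusted p 0.118). TPS9 TRINITY_DN19093_c1_g4, chosen after its values were seen, had 5.83, 5.23 and 5.60 TPM in DS, 10.74, 6.85 and 8.32 TPM in RW, and 11.02, 11.44 and 10.60 TPM in CK, a DS vs. CK difference of -0.88 with an adjusted p of 0.058 in limma.

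TPS5 had the opposite tendency without passing the test. TPS5 TRINITY_DN19093_c1_g1 (2129 bp) had 41.79, 57.70 and 28.61 TPM in DS, 18.95, 39.17 and 38.54 TPM in RW, and 40.17, 28.49 and 24.37 TPM in CK. TPS5 TRINITY_DN18043_c0_g1 (780 bp) had 29.05, 40.68 and 18.04 TPM in DS, 15.72, 35.93 and 32.68 TPM in RW, and 32.21, 21.92 and 15.81 TPM in CK, and followed the longer unigene (r = 0.937 across 9 libraries). DS and CK overlapped in both, and the DS vs. CK differences were 0.42 (95% interval -0.36 to 1.2) and 0.30 (95% interval -0.59 to 1.19). TPS7 and TPS11 had group means of 9.04 to 12.4 and 2.04 to 3.21 TPM and were not called, and another short TPS5 unigene had group means of at most 2.52 TPM.

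Trehalase, the enzyme that removes trehalose, varied little among libraries. TRE1 TRINITY_DN19404_c0_g1 (2093 bp) had 21.23, 21.42 and 21.49 TPM in DS, 19.28, 20.40 and 22.00 TPM in RW, and 21.89, 32.50 and 20.58 TPM in CK. The libraries overlapped except for the single high value of CK 2, and the DS vs. CK difference of -0.19 had a 95% interval of -0.65 to 0.27. By enzyme, phosphatase unigenes summed to 329.97, 157.49 and 358.86 TPM in DS, 97.29, 77.71 and 87.64 TPM in RW, and 90.83, 73.33 and 92.38 TPM in CK. The mean phosphatase sum in DS was 3.30 times that in CK and 3.22 times that in RW, with no overlap (exact two-sided permutation p = 0.1 in each, the smallest possible). The synthase sum was 153 ± 32.1 TPM in DS, 186 ± 21.1 in RW and 184 ± 18.5 in CK (SD, n = 3 each; exact permutation p = 0.2 for DS against either group).

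Within the trehalose family, phosphatases took a larger share of the TPM under drought and synthases a smaller one. Phosphatases took 43.7 to 72.0% of the family's TPM in DS libraries, 27.5 to 34.5% in RW libraries and 27.3 to 30.3% in CK libraries. Synthases took 23.7 to 50.4% in DS libraries, 58.7 to 65.5% in RW libraries and 60.6 to 63.6% in CK libraries. Neither share overlapped between DS and the other groups, but the shares are tied, since a higher phosphatase sum lowers the synthase share. TPPA made up most of the phosphatase sum (269 of a mean of 282 TPM in DS), and the synthase sum itself overlapped between DS and the other groups. The family's summed TPM was 360 to 511 in DS, 282 to 318 in RW and 269 to 310 in CK, whereas the raffinose family overlapped at 155 to 184 in DS, 127 to 219 in RW and 145 to 172 in CK.

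**Figure D3:**
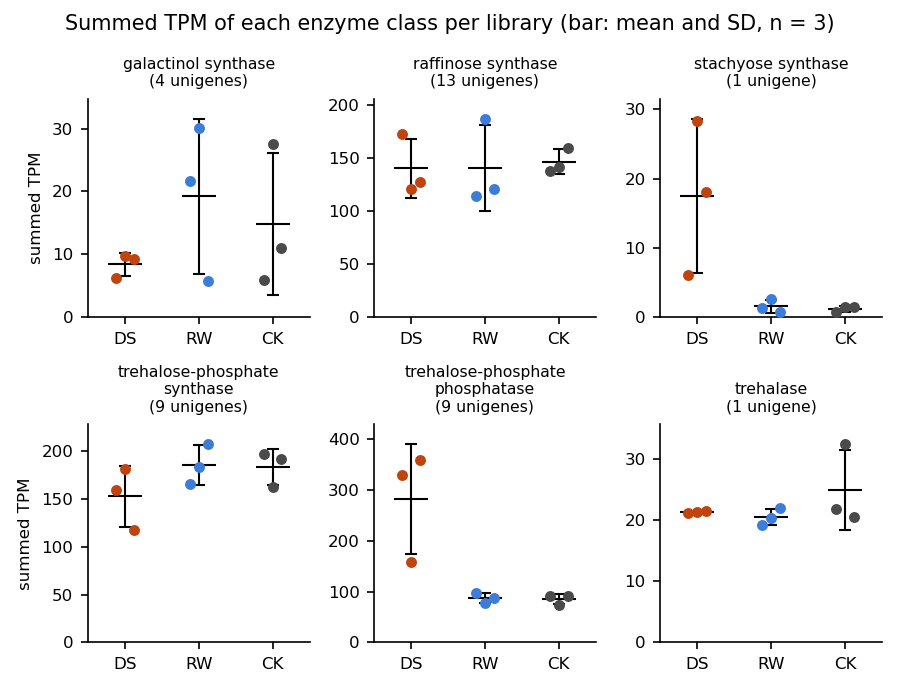
Summed TPM (vertical axis, from 0) of the tested unigenes of each of 6 enzyme classes in every DS, RW and CK library (points), with the group mean and SD (bars, n = 3). Stachyose synthase and trehalose-phosphate phosphatase have all DS points above RW and CK, and the other 4 classes overlap between DS and CK.

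After 2 days of rewatering, no member differed from CK by the call rule. Of 37 members, 0 were called by limma, 2 had an unadjusted p under 0.05 (TPPB and TPP9), and the smallest adjusted p was 0.696. The members called under drought had RW vs. CK differences near 0 with intervals that leave room for moderate change. They were 0.10 (95% interval -0.61 to 0.81) for TPPA TRINITY_DN21836_c0_g1 and 0.20 (-0.58 to 0.97) for TPPA TRINITY_DN20191_c0_g1. For RFS they were -0.31 (-1.06 to 0.44) in TRINITY_DN24926_c0_g1 and -0.36 (-1.08 to 0.35) in TRINITY_DN24926_c0_g2. For RFS1 they were -0.30 (-1.06 to 0.45) in TRINITY_DN21971_c0_g1 and -0.43 (-1.13 to 0.27) in TRINITY_DN23716_c0_g3. STS1 had 0.18 (-0.99 to 1.35) and TPS6 had 0.25 (-0.27 to 0.78).

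TPPB was the exception among the drought-called members. Its RW libraries stayed below every CK library, with a difference of -1.44 (95% interval -2.32 to -0.55, unadjusted p 0.00492, limma adjusted p 0.696). TPP9 TRINITY_DN26221_c1_g2 (354 bp), chosen after its values were seen, had 0.27, 0.58 and 0.46 TPM in DS, 1.73, 3.66 and 1.18 TPM in RW, and 0.84, 0.74 and 0.26 TPM in CK. All its RW libraries were above all DS and CK libraries, at levels close to the 1 TPM minimum. Only its RW libraries reached 1 TPM, so it was tested through RW alone and this separation followed from the minimum. Libraries of RW and CK did not overlap for 5 of 37 members, 1 higher and 4 lower in RW, against 11.8% of all unigenes tested (5.35% higher and 6.44% lower). TPP9 was the 1 higher, and it also counts among the lower in DS vs. RW. In DS vs. CK the corresponding count was 14 of 37 (6 higher, 8 lower) against 26.9% of all unigenes (8.86% higher and 18.1% lower), and in DS vs. RW it was 14 (7 higher, 7 lower) against 23.7% (8.01% higher and 15.7% lower).

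**Figure D4:**
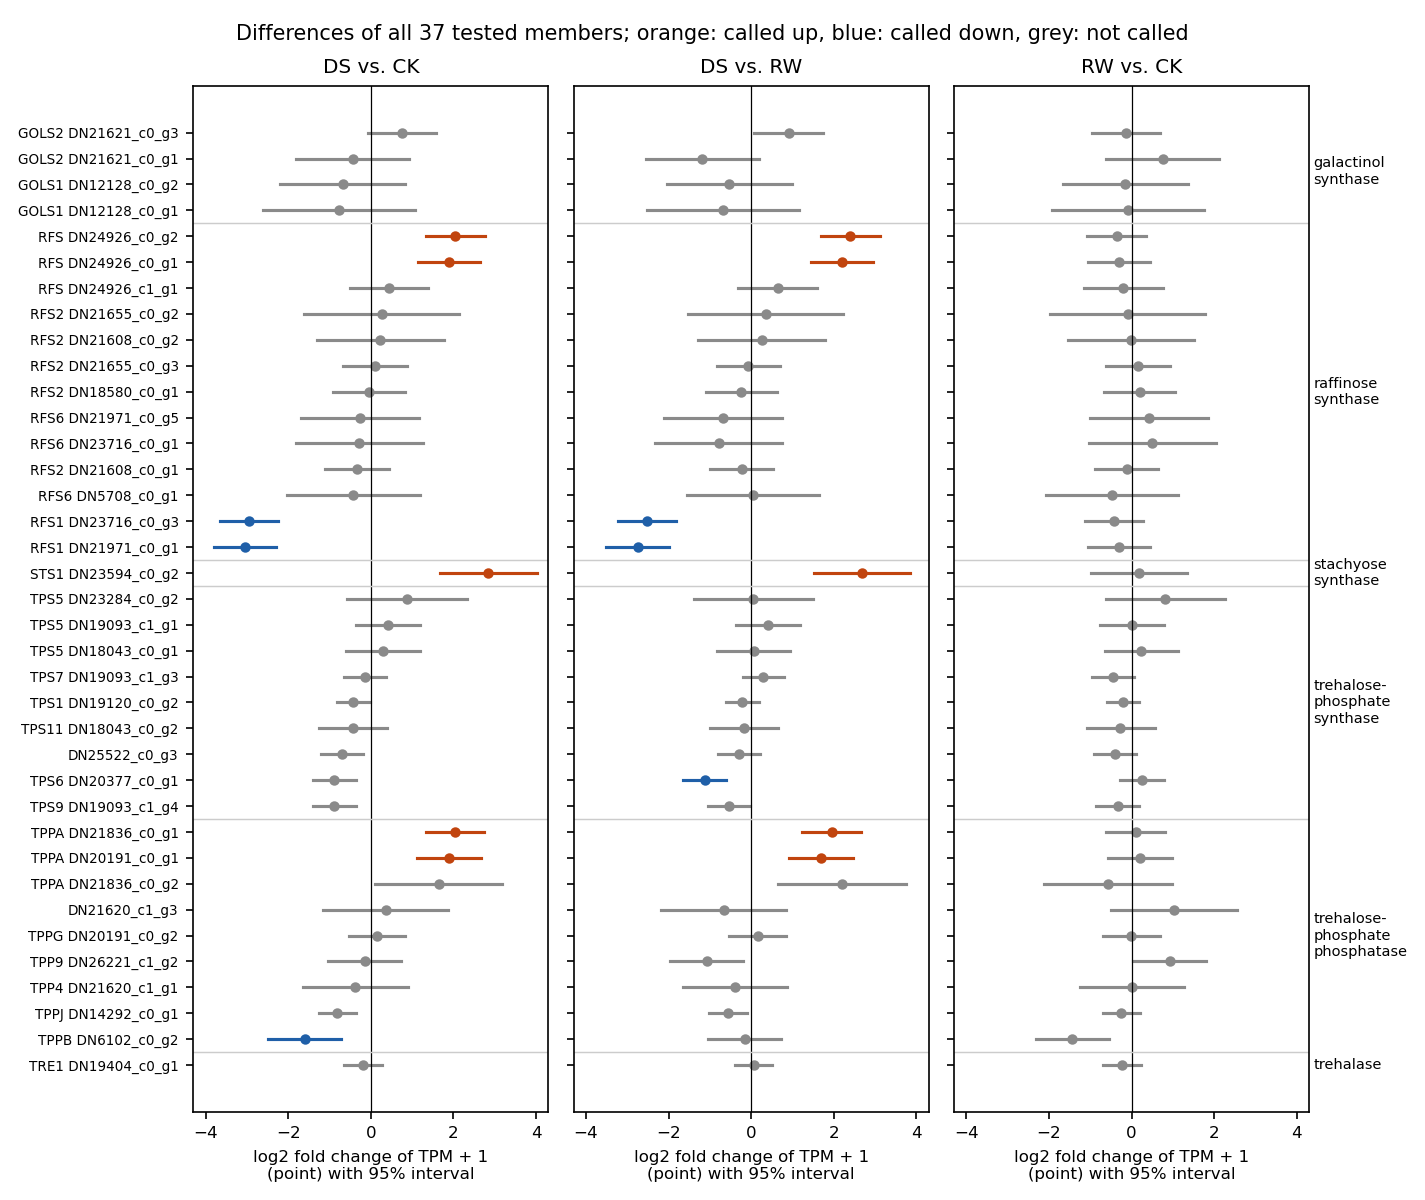
Log2 fold change of TPM + 1 (horizontal axis; points, with 95% intervals from limma) of the 37 tested members, with a panel for each comparison and enzymes grouped from top to bottom. Both drought comparisons have 5 members called up (orange) and 3 called down (blue), and RW vs. CK has 0 called.

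Of the other genes of the pathway, matched from a list of 9 enzymes and kinase subunits, 65 of 72 unigenes were tested. In DS vs. CK limma called 5 up and 2 down, against 4.96% of all unigenes tested. In DS vs. RW it called 4 up and 2 down, against 3.94%, and in RW vs. CK 0, against 0.00225% (3 passed the minimum fold at an unadjusted p under 0.05). Inositol-3-phosphate synthase makes the phosphate form of the inositol that galactinol synthase uses. It had 4 of 6 unigenes up in both drought comparisons, and these were not the most abundant of the 6. The longest of the 4, INPS1 TRINITY_DN23532_c0_g1 (1447 bp), had 449.16, 549.49 and 646.58 TPM in DS, 142.36, 143.69 and 119.55 TPM in RW, and 189.66, 143.57 and 109.31 TPM in CK. Its DS libraries were well above all others, by 1.91 in DS vs. CK (SE 0.24, adjusted p 0.00228) and 2.00 in DS vs. RW (SE 0.24, adjusted p 0.00187) on the log2(TPM + 1) scale. The other 3 (242 to 397 bp) had differences of 1.57 to 1.73 in DS vs. CK and 1.56 to 1.85 in DS vs. RW, and whether they are pieces of 1 transcript cannot be read from TPM. The DS vs. CK call of TRINITY_DN25938_c0_g2 was lost without CK 3 (1.39, adjusted p 0.0553) or DS 2 (1.68, adjusted p 0.0513).

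The 2 most abundant inositol-3-phosphate synthase unigenes were not called in any comparison and are described because of their level. TRINITY_DN25938_c1_g2 (1906 bp, no symbol) had 1369.54, 1899.93 and 1544.69 TPM in DS, 900.68, 2755.86 and 1534.67 TPM in RW, and 844.21, 711.17 and 277.44 TPM in CK. TRINITY_DN25938_c1_g1 (592 bp) had 615.73, 839.35 and 701.63 TPM in DS, 444.59, 1248.6 and 717.58 TPM in RW, and 413.83, 342.34 and 116.85 TPM in CK. In both, every DS and every RW library was above every CK library, while DS and RW overlapped. The log2 differences of c1_g2 were 1.53 in DS vs. CK (limma adjusted p 0.104), 0.03 in DS vs. RW (adjusted p 0.987) and 1.5 in RW vs. CK (95% interval 0.43 to 2.58, adjusted p 0.733). Those of c1_g1 were 1.48 (adjusted p 0.124), -0.05 (adjusted p 0.976) and 1.53 (95% interval 0.42 to 2.63, adjusted p 0.736) in the same comparisons.

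Among enzymes that supply the sugar donors and acceptors, 1 was called down and 1 up under drought. UGE1 TRINITY_DN15245_c0_g1, an epimerase that interconverts UDP-glucose and UDP-galactose, had 16.25, 9.49 and 8.03 TPM in DS, 50.51, 32.39 and 44.51 TPM in RW, and 33.27, 40.50 and 65.25 TPM in CK. It was below RW and CK in every DS library and fell by 1.95 in DS vs. CK (SE 0.32, limma adjusted p 0.00956) and by 1.86 in DS vs. RW (SE 0.32, adjusted p 0.0132). The DS vs. RW call of UGE1 was lost without DS 2, RW 1 or RW 3 (highest adjusted p 0.058). SPS3 TRINITY_DN25929_c0_g1, a sucrose-phosphate synthase, had 82.46, 127.96 and 97.01 TPM in DS, 42.66, 63.17 and 72.62 TPM in RW, and 29.87, 42.88 and 39.43 TPM in CK. It was higher by 1.42 in DS vs. CK (SE 0.26, adjusted p 0.0154), a call lost without CK 1, CK 3 or DS 2 (highest adjusted p 0.0572), and was not called in DS vs. RW. No unigene was called in limma for alpha-galactosidase (8 tested), sucrose synthase (18), sucrose-phosphatase (2), UTP-glucose-1-phosphate uridylyltransferase (4) or inositol monophosphatase (2). The 8 leave out the unigenes named RFS1, RFS2 and RFS6, whose Arabidopsis namesakes resemble alkaline alpha-galactosidases. Those were counted as members, and the RFS1 pair was called down in both drought comparisons.

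Among 16 tested subunits of SnRK1, the kinase that trehalose 6-phosphate inhibits in Arabidopsis, 1 was called in each drought comparison, close to the share over all unigenes (4.96% in DS vs. CK and 3.94% in DS vs. RW). KING1 TRINITY_DN19292_c0_g1, described as a regulatory gamma subunit, had 4.77, 2.01 and 6.07 TPM in DS, 37.04, 23.48 and 23.63 TPM in RW, and 26.00, 13.75 and 30.28 TPM in CK. It was lower in all DS libraries, with log2 differences of -2.22 in DS vs. CK (SE 0.39, limma adjusted p 0.0127) and -2.52 in DS vs. RW (SE 0.39, adjusted p 0.00697). Without CK 3 the DS vs. CK adjusted p of KING1 was 0.0596.

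**Figure D5:**
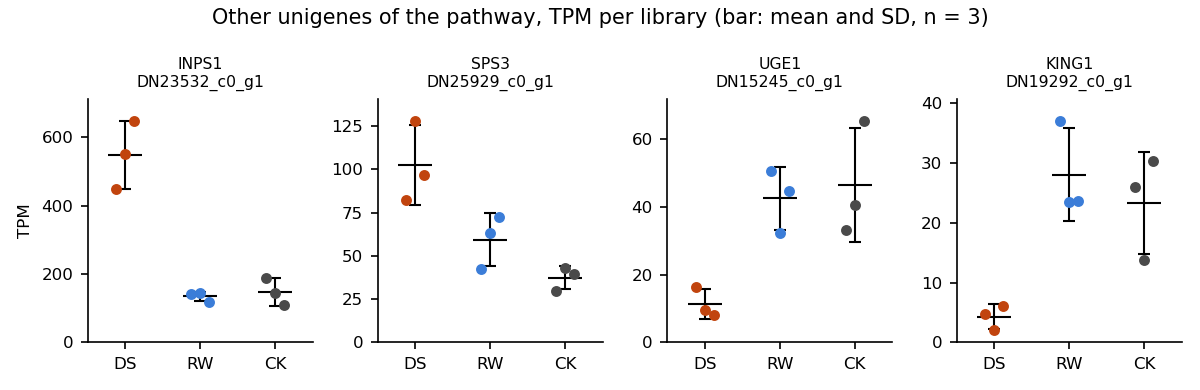
TPM (vertical axis, from 0) of INPS1 TRINITY_DN23532_c0_g1, SPS3, UGE1 and KING1 in each DS, RW and CK library (points), with the group mean and SD (bars, n = 3). INPS1 and SPS3 have all DS points above RW and CK, and UGE1 and KING1 have all DS points below them.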

How the data were processed

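The authors deposited 1 table of TPM values per unigene in 9 leaf libraries, 3 per group. The study's methods name Cutadapt for trimming, Trinity 2.4.0 for assembly (the longest transcript of a cluster stands for the unigene) and Salmon for abundance. The submitters' processing notes also name HISAT2 2.0 and StringTie 1.3.0. The study used edgeR, which needs counts, so log2(TPM + 1) was tested here with limma 3.58.1 (statmod 1.5.0, R 4.3.3) for the 44538 unigenes that reached 1 TPM in 3 or more libraries. A single fit of 3 group means over 9 libraries (residual df 6, trend and robust empirical Bayes) gave 3 contrasts, adjusted over all unigenes tested. Sums per enzyme were compared by exact two-sided permutation. Precision is limited by 3 libraries per group, since TPM keeps no depth. The steps were tested on simulated data.

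Members called in any contrast, the most abundant member of each enzyme and those with a group mean of at least 20 TPM were described in full. Other genes of the pathway were to be named only if called, up to 3 per enzyme by smallest p. Inositol-3-phosphate synthase departs from this. Its most abundant unigenes were described though not called, its called unigenes other than the longest were given by range, and TRINITY_DN25938_c0_g2 was named for a lost call. Members and lists were chosen with earlier results of these data known. Alternatives were other pseudocounts, filters, scalings and thresholds, the replicate block, each library left out, and summed unigenes. No sequence of a member was used here.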

Additional observations from a re-analysis of the deposited data

How the results depend on the processing

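Raffinose-family calls (5 in DS vs. CK and in DS vs. RW) stayed at 4 or 5 under other pseudocounts, filters, scalings and thresholds. They were 1 in each when TPM was summed per Trinity component, with the RFS1 and STS1 calls lost, where non-member unigenes enter the sums, and 3 in each when members were summed per symbol, which leaves fewer features (chosen after the data were seen). Leaving out 1 library gave 3 to 5 calls in DS vs. CK, with 3 without DS 2, and 4 to 5 in DS vs. RW. Trehalose calls (3 and 3) with 1 library left out ranged from 1 to 3 in DS vs. CK, with 1 without CK 2, CK 3 or DS 1, and from 1 to 3 in DS vs. RW, with 1 without DS 1, DS 3, RW 1 or RW 3. With an unadjusted p they were 4 in DS vs. CK, 5 in DS vs. RW and 1 in RW vs. CK, with no minimum fold 4 in DS vs. CK, and other pathway calls were 16 in DS vs. CK and 3 in RW vs. CK, against 7 and 0. Pathway calls in DS vs. CK were 4 to 8 with 1 library left out, 4 without CK 3. The trehalase log2 ratio of DS to RW means was 0.06, and 0.21 with median-of-ratios scaling or 0.19 with quantile normalization. The galactinol synthase log2 ratio of RW to CK means was 0.37, and 1.34 with a filter at 5 TPM, while that of DS to RW means was -1.19 and -1.87. Scaling moved the median difference of all unigenes in DS vs. CK to -0.05 or -0.04 from -0.19, and the share of calls that were up to 63.5% or 61.0% from 48.3%. In DS vs. RW that share was 67.0% or 64.2% beside 54.5%.

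Differences that were not called changed sign in a few cases. With TPM summed per component, TPS9 in DS vs. CK was 0.12, and in RW vs. CK RFS1 TRINITY_DN21971_c0_g1 was 0.12, STS1 -0.30 and TPPA TRINITY_DN21836_c0_g1 -0.05. With 1 library left out, ranges were -0.31 to 0.01 for TRE1 in DS vs. CK (0.01 without CK 2), -1.01 to 0.14 for RFS6 TRINITY_DN21971_c0_g5 in DS vs. CK (0.14 without DS 2 and 0.08 without DS 3), and, in RW vs. CK, -0.10 to 0.42 for STS1 (lowest without RW 2), -0.12 to 0.22 for TPPA TRINITY_DN21836_c0_g1 and -0.02 to 0.34 for TPPA TRINITY_DN20191_c0_g1 (both lowest without CK 2). For the uncalled inositol-3-phosphate synthase unigenes in DS vs. RW they were -0.37 to 0.44 (TRINITY_DN25938_c1_g2) and -0.41 to 0.34 (TRINITY_DN25938_c1_g1, also 0.11 with median-of-ratios scaling), the lowest without RW 1 and the highest without RW 2. The cause was not tested.

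Deviations from the group means had r from -0.094 to 0.063 between same-numbered libraries. The labels do not say what the numbers stand for, and these r values cannot exclude a pairing. With the replicate number as a block, raffinose calls were 5 in DS vs. CK and 5 in DS vs. RW, trehalose calls 2 and 2, without TPPB and TPS6, and RW vs. CK stayed at 0.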

Other observations

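A group of 6 unigenes carried a KEGG label for trehalose 6-phosphate synthase or phosphatase while their protein descriptions named other products or none, and they were not counted as members. Of these, 4 are described as KINESIN LIGHT CHAIN-RELATED proteins, which belong to a family of repeat proteins outside sugar metabolism. KLCR2 TRINITY_DN23440_c0_g1 had 12.89, 9.30 and 21.95 TPM in DS, 29.92, 8.82 and 19.39 TPM in RW, and 39.51, 103.77 and 68.80 TPM in CK. It was lower in all DS and all RW libraries than in CK, with a difference of -2.17 in DS vs. CK on the log2(TPM + 1) scale (limma adjusted p 0.0341) and of -1.86 in RW vs. CK (adjusted p 0.694, not passing). KLCR1 TRINITY_DN21331_c0_g4 had a difference of -2.09 in DS vs. CK (limma adjusted p 0.0343), with 1.2, 0.47 and 2.22 TPM in DS against 4.55, 11.32 and 10.64 TPM in CK. A count of trehalose phosphatases taken from KEGG labels alone would include both. These unigenes were chosen after their values were seen.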
